A study of Mus musculus with 10 samples.

Results

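miR-322 and miR-450a-5p are 2 microRNAs (miRNAs) made from a single gene cluster on the mouse X chromosome, and their 2 probes, mmu-miR-322 and mmu-miR-450a-5p, were taken by name from the 566 mouse miRNA probes of a NanoString panel. The pair was selected on its raw counts in these 10 libraries, so those counts and the genotype contrast made from them are given as a description and carry no test. RNA came from cultured B cell progenitors that had been transformed by Abelson virus: its v-Abl kinase lets immature B cells grow without end. The starting cells were liver suspensions of E14.5 C57BL/6 embryos, infected with a pMSCV-v-Abl vector and supported with IL-7. The 5 mutant cultures, numbered 6 to 10, carried Bim3'UTRmut/mut, a homozygous change in the 3' untranslated region of Bim, which encodes a protein that promotes cell death. The 5 wild type cultures, numbered 1 to 5, had no such change and underwent the same transformation, and the series has no group of untransformed cells. The labels do not say which bases of the Bim 3'UTR were altered, whether a line was clonal, or whether cultures of a genotype came from separate embryos. The panel's nCounter method counts colour-coded probes bound to single RNA molecules, from 100 ng of total RNA per culture.

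A miRNA silences messenger RNAs mainly through its seed, bases 2 to 8 counted from the 5′ end, so miRNAs of 1 seed share many targets. miR-322 is the mouse counterpart of human miR-424 and carries the seed of the miR-15/16 family, whose known targets include cyclins and other genes of the cell cycle and of survival. The cluster it belongs to also encodes miR-503, miR-351, miR-542, miR-450a and miR-450b. It is known from developing muscle and other tissues of mesodermal origin, while miR-15a, miR-15b and miR-16 are the family members abundant in lymphocytes.

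The mature sequences below are those of RefSeq (GRCm38.p6), with the seed in capitals, and are shown because the seeds set the members apart. The panel gives no arm for miR-322, miR-503, miR-351 or the miR-15/16 relatives, so the 5′ arm was taken for each. All of the first 7 lie on the minus strand of chromosome X.
miR-322: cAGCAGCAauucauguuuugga
miR-450a-5p: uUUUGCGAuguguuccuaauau
miR-503: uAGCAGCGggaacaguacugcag
miR-351: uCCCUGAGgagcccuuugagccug
miR-542-5p: cUCGGGGAucaucaugucacga
miR-542-3p: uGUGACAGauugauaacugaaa
miR-450b-5p: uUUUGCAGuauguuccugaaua
miR-15a: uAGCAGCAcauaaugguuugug
miR-15b: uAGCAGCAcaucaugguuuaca
miR-16: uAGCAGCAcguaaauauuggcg
The seed of miR-322, AGCAGCA, occurred in 10 of 1679 mature mouse miRNA names, among them miR-15a, miR-15b and miR-16, whereas that of miR-450a-5p, UUUGCGA, occurred in 1, itself. The seed of miR-503 is AGCAGCG, and miR-450b-5p shares 15 of its bases by position with miR-450a-5p. Of the 22 positions of miR-322, the shared seed included, miR-15b matches 16, miR-15a 15 and miR-16 12, so these relatives differ from it outside the seed.

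Mature miR-322 maps to chrX:53054306-53054327. miR-450a-5p is encoded by 2 genes with the same mature sequence, at chrX:53048339-53048360 (Mir450-2) and chrX:53048206-53048227 (Mir450-1), so its probe counts the product of both genes. Measured from the 5′ start of miR-322, the Mir450-2 copy begins 5967 bases downstream and the Mir450-1 copy 6100 bases downstream. Mir503, Mir351 and Mir542 lie between. In the RefSeq table Mir322, Mir503 and Mir351 fall inside the span of the long noncoding RNA gene C430049B03Rik, and the nearest protein-coding genes are Plac1 on the Mir322 side and Hprt on the Mir450b side. Exons, introns and UTRs there were not analysed here.

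The 10 libraries held 356141 to 470493 counts in all and 240469 to 354826 on mouse miRNA probes. A count was called above background when it exceeded the mean + 2 SD over the 8 negative controls of its library; this threshold ran from 90.5 to 127 counts. All 6 B-lymphoid and pan-haematopoietic markers were kept for testing (56 of 60 values above the threshold), with summed counts of 25211 to 41361 in mutant and 24786 to 33896 in wild type libraries, most of them from the pan-haematopoietic miR-142-3p. Wild type 5 was below the threshold for 2 of them, the lymphoid miR-150 (60 counts, where the other wild types had 292 to 522) and miR-155 (84 counts, where they had 120 to 243). Of 18 probes for miRNAs of other cell types (red cells, myeloid cells, endothelium, hepatocytes, mesenchyme, muscle and neurons), 0 were kept and 5 of 180 values exceeded the threshold. None of these was at 0, and their sums ran from 647 to 1064 in mutant and 798 to 921 in wild type libraries. Several libraries stood apart: over the 116 kept probes, correlations of log2 levels were 0.966 to 0.986 among mutants 6 to 8 but 0.840 to 0.935 in mutant pairs with mutant 9 or 10. They were 0.978 to 0.993 among wild types 1 to 4 and 0.919 to 0.945 for wild type 5 with these. Mutants lay in lanes 6 to 10 and wild types in lanes 1 to 5 of the same cartridge, so effects of lane and of genotype cannot be told apart.

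miR-322 gave raw counts of 345, 294, 305, 107 and 817 in mutants 6 to 10, against 221, 213, 239, 211 and 83 in wild types 1 to 5. The libraries thus fell into a dominant value, mutant 10, a middle range holding 3 mutants and 4 wild types, and a low end formed by mutant 9 and wild type 5. In those last 2 the count lay below the library's own threshold (107 and 107.3 in mutant 9, 83 and 118 in wild type 5), so miR-322 was above background in 4 of 5 mutants and 4 of 5 wild types. Exact 95% Poisson intervals, which cover counting error only, were 762 to 875 for mutant 10 and 87.7 to 129 for mutant 9, against 66.1 to 103 for wild type 5. Those of the low pair overlap, and neither reaches that of any other library. In bulk cultures fewer cells that express a miRNA and less of it per cell cannot be told apart.

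Counts were then scaled with TMM (trimmed mean of M-values) factors computed on the kept probes, to put libraries of different size on a common footing. After scaling, miR-322 averaged 360 ± 250 normalised counts in mutants and 205 ± 63.6 in wild types (SD, n = 5 each). Mutants 6, 7, 8 and 10 lay at 370, 288, 287 and 766, all above the highest wild type at 249.6, whereas mutant 9 at 87.2 lay below the lowest at 92.9. The groups therefore overlapped through a single mutant library, and the difference between the means was smaller than the SD among mutants.

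miR-450a-5p gave lower counts, 161, 119, 154, 40 and 330 in mutants 6 to 10, against 100, 56, 78, 58 and 26 in wild types 1 to 5. The same libraries stood at the ends: mutant 10 was highest, and mutant 9 and wild type 5 were lowest. It exceeded the background threshold in mutants 6, 8 and 10 and in 0 of 5 wild types, so it failed the filter of 5 libraries out of 10 that miR-322 passed. In mutant 9 and wild type 5 its counts of 40 and 26 did not reach even the mean of the negative controls, 47.8 and 56.9, so the order of those 2 libraries holds no information. After scaling it averaged 155 ± 101 normalised counts in mutants and 67.0 ± 27.0 in wild types (SD, n = 5 each). Mutants 6, 7, 8 and 10 again lay above all wild types, at 173, 117, 145 and 309 against a highest wild type of 101. Mutant 9, at 32.6, lay within the wild type range, whose low end was 29.1 in wild type 5.

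**Figure D1:**
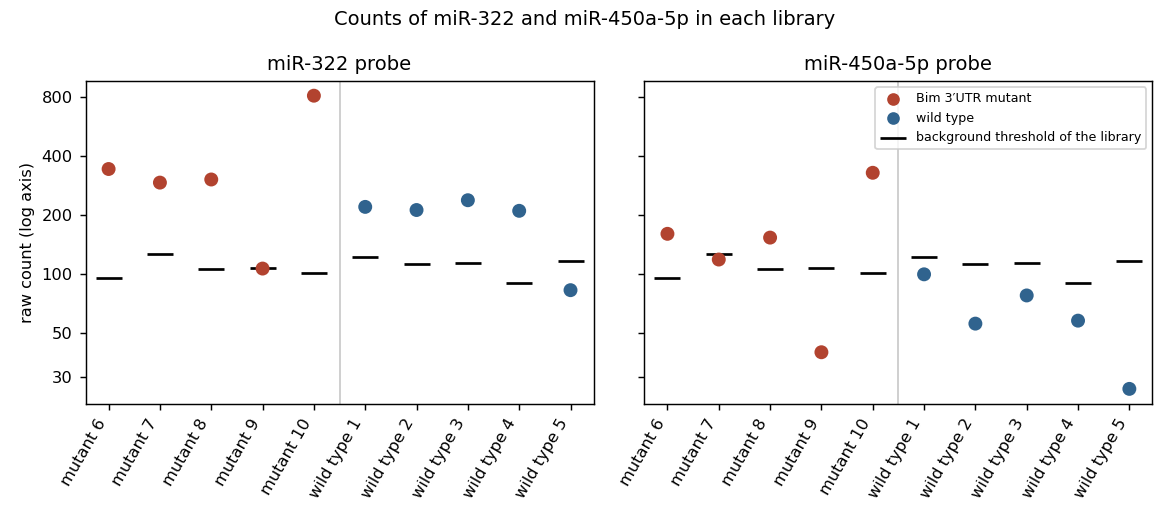
Raw counts (log axis) of miR-322 (left panel) and miR-450a-5p (right panel) in each of the 5 mutant and 5 wild type libraries, 1 point per library, with a bar at the background threshold of that library. For both probes mutant 10 is highest and mutant 9 and wild type 5 are the lowest, and no wild type point of miR-450a-5p reaches its bar.

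The pair moved together across libraries. On the log2 CPM scale (normalised counts relative to library size), Pearson's r between the 2 probes was 0.958 and Spearman's rho 0.939 over 10 libraries, given as a description, since the points share library, depth and background. The median r of miR-322 with the other kept probes was -0.09 on the same scale. Without mutants 9 and 10, the libraries farthest from the median of miR-322, r was 0.921 and rho 0.905 over 8 libraries. These 8 still include wild type 5, whose miR-450a-5p count of 26 was below its negative-control mean of 56.9. The part of wild type 5 in this r was not tested. Among mutants the order of scaled levels differed between the probes only for mutants 7 and 8, whose miR-322 levels were 288 and 287. Among wild types number 5 was lowest for both probes, while the other 4 spanned 221 to 249.6 for miR-322 and 58.2 to 101 for miR-450a-5p in different orders. Both probes were above background in 3 libraries, all mutants, so most of the points behind r include a miR-450a-5p count below the threshold.

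**Figure D2:**
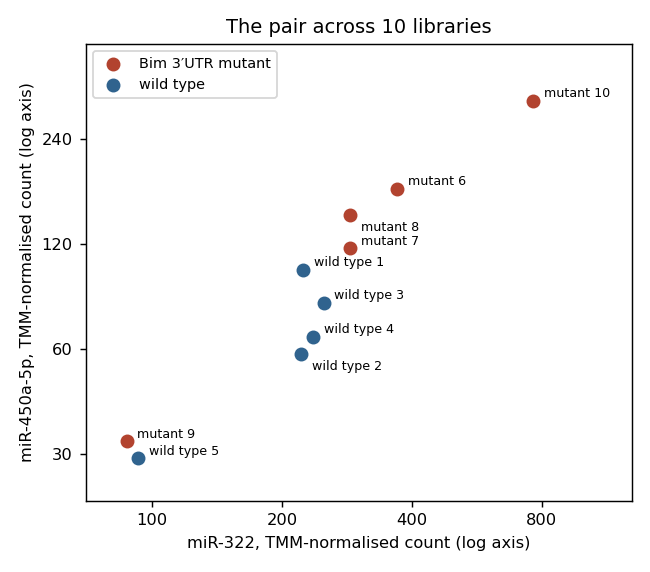
TMM-normalised counts of miR-450a-5p (vertical) against miR-322 (horizontal), both on log axes, 1 point per library, 5 mutants and 5 wild types. The points rise together from mutant 9 and wild type 5 to mutant 10, with Pearson's r of 0.958 on the log2 scale over 10 libraries.

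The ratio of the raw counts, miR-322 over miR-450a-5p, was 2.14, 2.47, 1.98, 2.68 and 2.48 in mutants 6 to 10, against 2.21, 3.80, 3.06, 3.64 and 3.19 in wild types 1 to 5. It averaged 2.35 ± 0.281 in mutants and 3.18 ± 0.623 in wild types (SD, n = 5 each). The groups overlapped through wild type 1. Its lower term was not above background in 7 of the 10 libraries, all wild types among them, and in mutant 9 and wild type 5 neither term was, so these ratios are inexact and no difference is read from them.

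This spread was wide within each genotype. The SD of log2 levels for miR-322 was 1.13 among mutants and 0.60 among wild types, where the medians over the kept probes were 0.30 and 0.18, and 14 of 116 kept probes exceeded it in each group. For miR-450a-5p the SD was 1.19 among mutants and 0.68 among wild types. Wild type 5 accounted for most of the wild type spread of miR-322: without it the SD was 0.08, under the kept-probe median of 0.12, while that of miR-450a-5p was 0.35. Mutant 9, with low levels of both, had the highest miRNA total of the series, 354826 counts, and mutant 10, with the highest levels of both, had 331407. Wild type 5, also low for both, had 246924, with 240469 in wild type 4 the one lower total. The part of library size in these levels was not tested.

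Genotype was compared in edgeR's quasi-likelihood fit over the 116 kept probes, where 0 probes (0% of those tested) passed a Benjamini-Hochberg adjusted p of 0.05 and 11 (9.48%) had an unadjusted p below 0.05; DESeq2's Wald test called 5. In that fit miR-322 had a log2 fold change, mutant over wild type, of 0.81 (SE 0.50), with 58 of the 116 probes above 0, a median of -0.00 and 5 probes above miR-322. Because miR-450a-5p was not kept, its estimate of 1.35 (SE 0.54) came from the fit of all 566 probes. There miR-322 had 0.95 (SE 0.49), and the kept probes had a median of 0.22 in place of -0.00, as scaling there used all probes, most of them below background. With the miR-450a-5p probe added to the kept ones, a setting chosen after seeing the data, the 2 estimates were 1.25 (SE 0.54) for miR-450a-5p and 0.86 (SE 0.51) for miR-322.

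The size depended on the libraries included, and leaving out mutant 10 or mutant 9 moved it in opposite directions. Without mutant 10 the log2 fold change was 0.35 for miR-322 and 0.95 for miR-450a-5p. Unless a setting changed the filter, miR-322 was read from fits of the kept probes and miR-450a-5p from fits without a filter. As these differ in scaling, the sizes of the 2 probes are not compared here. Without mutant 9 it was 1.11 for miR-322 and 1.60 for miR-450a-5p, and without wild type 5 it was 0.63 and 1.15 in the same order. With mutants 9 and 10 both left out it was 0.63 (SE 0.29) for miR-322 and 1.22 (SE 0.37) for miR-450a-5p. Across 22 alternative settings each probe's estimate was above 0 in all 22, from 0.35 to 1.23 for miR-322 and from 0.95 to 2.63 for miR-450a-5p, the last with negative controls subtracted. For miR-450a-5p the setting without a filter is its main fit, so that setting adds nothing. Of the kept probes, 2 (1.72%) had mutant levels wholly above wild type levels and 1 (0.862%) wholly below, and miR-322 was not among them.

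**Figure D3:**
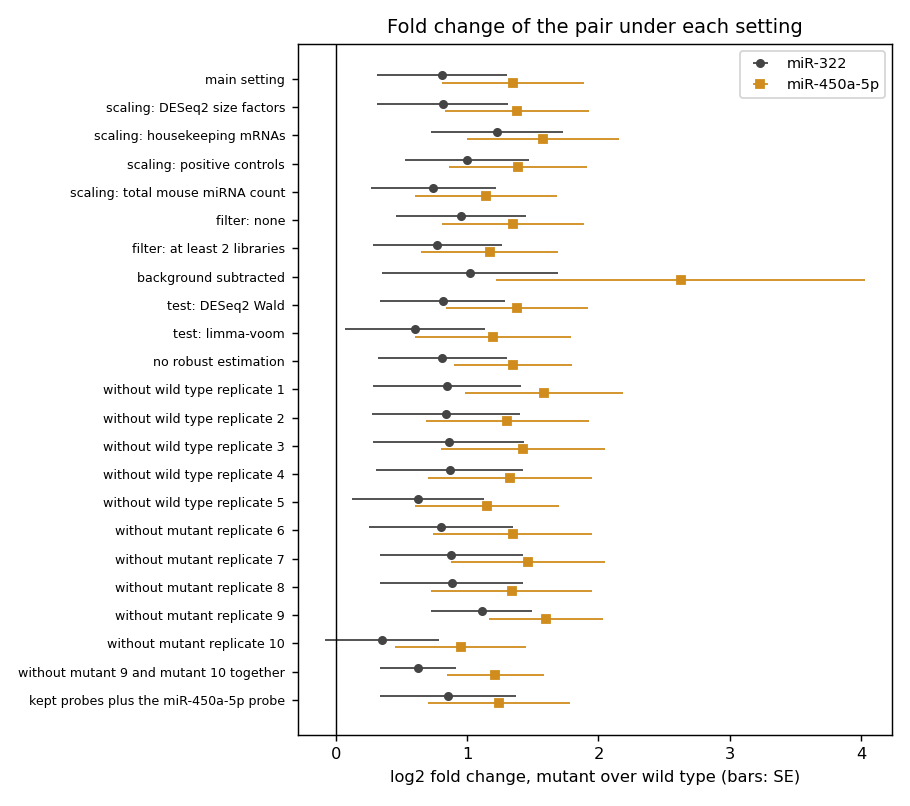
Log2 fold change, mutant over wild type (horizontal axis), of miR-322 (circles) and miR-450a-5p (squares) under the main setting and each alternative, with bars of 1 SE. All estimates lie above 0, the lowest for both are those without mutant 10 (0.35 and 0.95), and the widest bar is that of miR-450a-5p after background subtraction (2.63). Unless a setting changes the filter, miR-322 comes from fits of the kept probes and miR-450a-5p from fits without a filter.

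The other products of the cluster were not detected. Its 7 further probes, for miR-503, miR-351, both arms of miR-542, miR-450a-3p and both arms of miR-450b, had counts of 6 to 93, and 0 of 70 values exceeded the threshold. Their summed counts per library were 215 to 300 in mutants and 229 to 272 in wild types. Mutant 10, highest for the pair, had 284, below mutants 6 and 7 at 300 and 298, while mutant 9 and wild type 5, lowest for the pair, had 215 and 229, beside 231 in mutant 8. Being below the threshold in all libraries, these probes cannot show whether the other products followed the pair. miR-503, whose mature sequence starts 278 bases downstream of that of miR-322, had 22 to 36 counts in mutants and 18 to 29 in wild types. miR-450a-3p, the opposite arm of the miR-450a hairpins, had 14 to 20 counts in mutants and 6 to 22 in wild types.

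In the unfiltered fit, 0 of these 7 probes passed the adjusted p, beside 0 of all 566 (0%), and 1 had an unadjusted p below 0.05, beside 8.66% of all 566. That probe was miR-450b-3p, with 24, 24, 32, 24 and 38 counts in mutants 6 to 10, against 17, 20, 19, 24 and 14 in wild types 1 to 5. Mutant 10 was its highest library and wild type 5 its lowest, the groups met at 24, and all 10 values were below threshold. Its log2 fold change in that fit, scaled on all probes, was 0.61 (SE 0.21, edgeR quasi-likelihood unadjusted p = 0.0077, adjusted p = 0.291). With the scaling of the kept probes its levels averaged 26.9 in mutants and 20.1 in wild types, a ratio of 1.34, and overlapped. The r of miR-450b-3p with miR-322 was 0.80 over 10 libraries. For the other 6 cluster probes r with miR-322 ran from -0.04 for miR-450a-3p to 0.583 for miR-351.

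**Figure D4:**
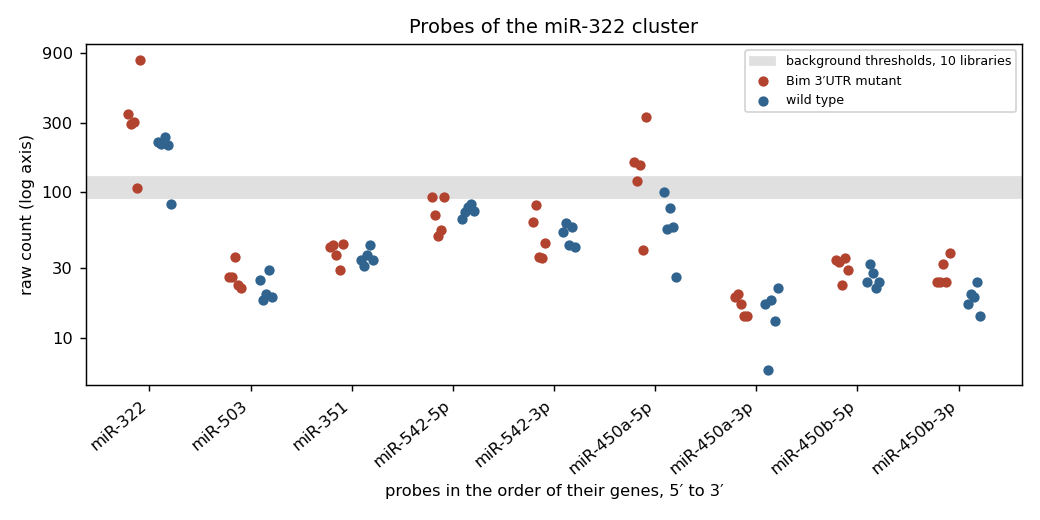
Raw counts (log axis) of the 9 panel probes of the cluster, in the order of their genes from 5′ to 3′, 1 point per library with mutants left of wild types, and a grey band over the background thresholds of the 10 libraries. Only miR-322 and miR-450a-5p have points above the band, and the other 7 probes lie between 6 and 93 counts.

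The miR-15/16 relatives, which share the seed of miR-322 but come from other chromosomes, differed in level among themselves: miR-15a, miR-15b and miR-16 had 4493 to 31179 counts, while miR-195 and miR-497 stayed below background. miR-16, the most counted of them, had 27366, 27684, 31179, 23148 and 30182 counts in mutants 6 to 10, against 22298, 22201, 24058, 23172 and 21891 in wild types 1 to 5. Its scaled level was lowest in mutant 9, as for miR-322, but wild type 5 was not low and mutant 10 was not the highest. In edgeR's quasi-likelihood test 0 of the 3 kept relatives passed: miR-16 had a log2 fold change of 0.13 (SE 0.12, adjusted p = 0.654), miR-15b 0.05 (SE 0.12, adjusted p = 0.891) and miR-15a -0.06 (SE 0.10, adjusted p = 0.842). Directions of miR-15a and miR-15b changed with the scaling or the libraries used. Without mutant 9 miR-16 had 0.28 and passed (edgeR adjusted p = 0.0426, range over all settings 0.0426 to 0.865), the only one of 116 probes (0.862%) to do so there. Their r with miR-322 over 10 libraries was 0.740 for miR-16, 0.104 for miR-15a and -0.04 for miR-15b.

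miR-195 and miR-497, the relatives of the same seed that lie together on chromosome 11, were not kept, with counts of 18 to 63 in mutants and 20 to 56 in wild types. miR-322 therefore made up a small share of the counts with this seed, taken over miR-322, miR-15a, miR-15b and miR-16. It was 0.742%, 0.629%, 0.623%, 0.263% and 1.80% in mutants 6 to 10, against 0.563%, 0.556%, 0.615%, 0.555% and 0.225% in wild types 1 to 5. Exact Clopper-Pearson 95% intervals were 1.68% to 1.93% for mutant 10 and 0.215% to 0.317% for mutant 9, against 0.179% to 0.279% for wild type 5. These intervals cover counting error only, and no background was subtracted. In mutant 9 and wild type 5 the miR-322 count was below the threshold, so their shares hold much background and their intervals do not cover it. The mean share was 0.812% ± 0.582 in mutants and 0.503% ± 0.157 in wild types (SD, n = 5 each), a difference within the spread of the mutants. Probes differ in how efficiently they capture their target, so these are shares of counts and not of molecules.

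Mature miR-106a starts 311764 bases downstream of mature miR-322 on the same strand. Its cluster with miR-363, a paralogue of miR-17~92, was read out in the same fit. Of its 6 probes 5 were kept and 0 passed, beside 0 of all 116 (0%), with log2 fold changes of -0.06 for miR-363, -0.03 for miR-18b, -0.01 for miR-19b, 0.01 for miR-20a+miR-20b and 0.02 for miR-106a+miR-17. The last 2 also count products of miR-17~92 on another chromosome, and the miR-19b sequence is made by both clusters. miR-92a, above the threshold in 1 library, was not kept. Their r with miR-322 over 10 libraries ran from -0.22 for miR-18b to 0.26 for miR-20a+miR-20b among the kept probes, and a difference from the pair was not tested.

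The kept probes most like the pair were ranked by Pearson's r of log2 CPM over the 10 libraries. For miR-450a-5p the first was miR-322 itself (0.958), followed by miR-16 (0.742), let-7e (0.662), miR-720 (0.613) and miR-210 (0.558), the last known as induced by low oxygen. These values pool both genotypes, and 5 libraries of a genotype were too few for an r of their own: for miR-210 mutants 6 to 10 had 1092, 851, 1403, 48 and 388 counts, against 135 to 505 in wild types, of which wild type 5, lowest for the pair, was the highest. For miR-322 they were let-7e (0.781), miR-720 (0.752), miR-16 (0.740), miR-200b (0.622) and miR-30b (0.484). Without mutant 10 these last values were 0.683 for let-7e, 0.653 for miR-720, 0.761 for miR-16, 0.315 for miR-200b and 0.291 for miR-30b, so those of miR-200b and miR-30b rested largely on that library. Ranks gave another picture for some: rho with miR-322 was 0.855 for miR-16 but 0.321 for let-7e. let-7e, of the let-7 family, had 274, 313, 332, 325 and 395 counts in mutants 6 to 10, against 331, 339, 311, 282 and 227 in wild types 1 to 5. After scaling it shared with miR-322 its highest library, mutant 10 (370), and its lowest, mutant 9 (265) and wild type 5 (254), while in the middle mutants 6 to 8 (294 to 313) lay below wild types 1 to 4 (316 to 352).

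miR-203, best known from skin epithelium, had the lowest r with both members, -0.816 with miR-322 and -0.765 with miR-450a-5p. By ranks it was less opposed, with a rho of -0.479 with miR-322 and -0.564 with miR-450a-5p. Its counts were 166, 213, 138, 459 and 68 in mutants 6 to 10, against 99, 119, 91, 185 and 413 in wild types 1 to 5. It was thus highest in mutant 9 and wild type 5, where the pair was lowest, and lowest in mutant 10, where the pair was highest. Between genotypes miR-203 had a log2 fold change of -0.05 (SE 0.56). After it, miR-130b (-0.672) and miR-103 (-0.663) were least like miR-322, miR-103 with an r of -0.197 once mutant 10 was left out, and miR-674 (-0.593) and miR-2134 (-0.571) were least like miR-450a-5p.

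Among the markers of other cell types, miR-126-3p, which is typical of endothelium and also found in haematopoietic progenitors, had its extremes in the same mutants as the pair. It had 105, 70, 97, 47 and 234 counts in mutants 6 to 10, against 65, 57, 60, 45 and 57 in wild types 1 to 5. Mutants 6 and 10 exceeded the threshold, mutant 9 was the lowest mutant, and wild type 5 lay within the range of the other wild types. The myeloid miR-223 also had extremes in libraries of the pair: 24, 17, 21, 25 and 137 counts in mutants 6 to 10, against 66, 92, 96, 92 and 28 in wild types 1 to 5. It was high in mutant 10 and low in wild type 5, while mutants 6 to 8 were as low as mutant 9, and 2 values, mutant 10 and wild type 4, exceeded the threshold. The other arm of miR-126, miR-126-5p, had 20 to 37 counts in mutants and 19 to 24 in wild types and was never above the threshold. The 5 mesenchymal markers summed to 147 to 232 counts in mutants and 179 to 226 in wild types, with 187 in mutant 10 and 170 in mutant 9. The part of other cell types in the levels of the pair was not tested.

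**Figure D5:**
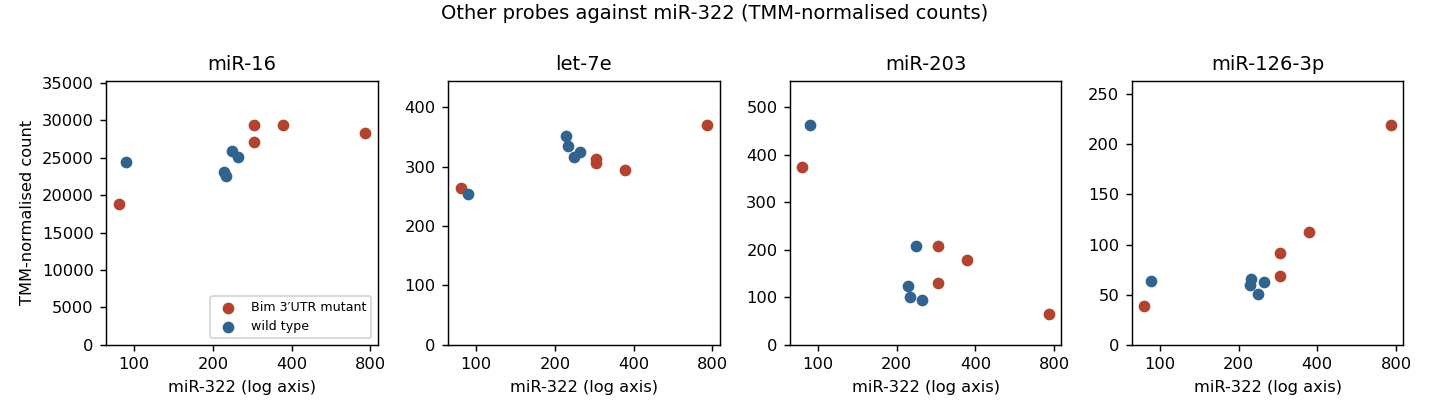
TMM-normalised counts of miR-16, let-7e, miR-203 and miR-126-3p (vertical axes from 0) against miR-322 (horizontal, log axis), 1 point per library, 5 mutants and 5 wild types. miR-203 is lower where miR-322 is higher (r of -0.816), and mutant 10, at the right of each panel, is the highest library for let-7e and miR-126-3p and the lowest for miR-203.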

How the data were processed

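Values in both deposited tables are the same raw counts, whole numbers that differ in total between libraries. Per the labels' protocols, RNA came from a miRNeasy kit and samples of low purity were left out. The sources used here give no other step by the authors. Groups and library numbers came from the sample titles, and 4 summary columns of the tables were not used. Since nothing says that cultures came from separate embryos, p-values cover only the differences among these cultures.

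The 566 mouse miRNA probes were filtered (above mean + 2 SD of 8 negative controls in at least 5 of 10 libraries), and 116 were kept. Their counts were fitted on genotype in R 4.3.3 using edgeR 4.0.16, scaled by TMM (factors of 0.872 to 1.11) and tested by robust quasi-likelihood, with Benjamini-Hochberg adjustment over all kept probes. DESeq2 1.42.0 and limma 3.58.1 (voom) were alternatives. Likeness used log2 CPM with a prior of 1. The fit was tested on simulated data, where it called 58.5% of probes raised 2-fold, 83.5% of those raised 4-fold and 0.99% of unchanged ones. Changes of 2-fold, and some of 4-fold, could thus be missed. Each simulation raised 20 of the 116 probes, drawn regardless of their spread. The rates may therefore be too high for a probe as variable as miR-322, whose pooled log2 SD was 0.90 beside a kept-probe median of 0.23. Sequences were matched by name to RefSeq mature miRNAs, and the tables hold no probe sequences, so cross-binding could not be tested.

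Named probes were the pair, all panel probes of its cluster, of its seed and of the cluster of miR-106a and miR-363, and, for each member, the 5 most and 3 least like it. miR-126-3p, miR-223, miR-150 and miR-155 were singled out of the marker lists after their values were seen. The members, lists and rules were chosen with earlier results of these data known.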

Additional observations from a re-analysis of the deposited data

Results flagged for a closer look

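Distances of the end library to its nearest neighbour were compared with the group's whole range in 28 groups of 5 libraries (the probes of the pair, its cluster and its seed, by genotype). In 2 of them the share exceeded Dixon's 95% critical value of 0.71, so these are values to look at and no more. Chance alone marks about 1 in 20 groups. As 1 of the 2 belongs to a probe selected on these counts, their number is not weighed against that rate. For miR-16 in mutant 9 the share was 0.784. For miR-322 in wild type 5 it was 0.82, given as a description, since these counts chose the pair; the normalised count was 92.9, where wild types 1 to 4 lay between 221 and 249.6.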

How the results depend on the processing

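With the limit of 5 libraries a genotype and miR-450a-5p near background, estimates for the pair are imprecise. Across 22 alternatives, of which the one without a filter is the main fit of miR-450a-5p, both estimates stayed above 0. This says little, since all alternatives use the same libraries. For miR-322 the SD between replicates was 0.90, beside an estimate of 0.81 (SE 0.50). miR-450a-5p had 2.63 (SE 1.41) with negative controls subtracted; leaving out 1 library gave 0.35 (without mutant 10) to 1.11 for miR-322 and 0.95 to 1.60 for miR-450a-5p. Of 116 probes, 0 passed in edgeR (11 at an unadjusted p below 0.05), 5 in DESeq2's Wald test (let-7i and miR-29b lower, miR-26b, miR-30d and miR-350 higher in mutants), 5 without mutants 9 and 10 together, and 0 to 1 with 1 library left out (miR-16 without mutant 9, miR-29b without mutant 10). Counts at an unadjusted p below 0.05 were 52 with housekeeping scaling, where the median log2 fold change of all kept probes was 0.46, 23 with positive control scaling (median 0.20) and 49 of 566 without a filter, with 0 past the adjusted p in each. miR-15a, at -0.06, was at 0.39 with housekeeping scaling, 0.14 with positive controls, 0.13 without a filter, 0.073 without mutants 9 and 10, and -0.12 to 0.029 with 1 library left out. miR-15b, at 0.05, was at -0.0095 with background subtracted and -0.039 to 0.14 with 1 library left out. miR-16 ran from 0.095 to 0.28 with 1 library left out, and passed without mutant 9 (0.28). Apart from the scalings that shift all probes and the choice of libraries, the cause was not tested. Requiring all 10 libraries above threshold removed both members, and no other probe of the cluster was kept, so these gave no value. No paired analysis was possible because the mutant and wild type cultures share no replicate numbers.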
